A study of Rattus norvegicus with 47 samples.

Results

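The 10 genes described here are immediate early transcription factors in blood: the nuclear receptors Nr4a1, Nr4a2 and Nr4a3, the AP-1 subunits Fos, Fosb, Jun, Junb and Jund, and the zinc finger factors Egr1 and Egr2. They were taken by symbol from the authors' table, which holds 20935 symbols on 27596 probe sets, and each of the 10 had 1 probe set. The samples were blood cell pellets of 8 male spontaneously hypertensive rats (SHR), 16 weeks old, each bled before and after a transient occlusion of the middle cerebral artery (MCA) by a silicon-coated thread. The groups were 0 h, drawn before anesthesia, and 1, 2, 3, 6 and 24 h post MCA occlusion, with 8 arrays each except for 7 at 6 h, 47 in all. The thread was withdrawn under anesthesia between the 1 h and 2 h samples, no sham-operated rats were included, and every rat carried the same strain background, surgery and heparinised blood draws. The tail vein was bled at every time point except 24 h, when a heart puncture was made after an overdose of the anesthetic. Time, site of collection and overdose thus cannot be told apart in that group. The effects of occlusion, surgery, anesthesia and repeated bleeding cannot be told apart at any time either.

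Immediate early genes are switched on within minutes of a signal from factors already present in the cell, without new protein synthesis, and their transcripts are short-lived. Kinases of the MAPK cascade act through SRF and its ETS partners at CArG boxes, and CREB acts at cyclic AMP response elements. The products control a later set of genes: AP-1 is a dimer of a Fos and a Jun protein or of 2 Jun proteins, EGR proteins bind GC-rich sites, and NR4A proteins are orphan nuclear receptors that bind AAAGGTCA. In leukocytes they are known for their response to antigen receptors, to adhesion and to inflammatory signals, and handling of blood can also induce them.

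The authors' table gives a mean and an SD of the log2 RMA signal per time point. The values of single samples were not used, so that no lowest or highest sample can be given. An array signal depends on the probes, so that levels are compared here between time points of 1 gene and never between genes. A change is a difference of log2 means, and 1 unit of it is 2-fold. Tests are limma's moderated tests over the 6 time points, computed from each time point's deposited mean, SD and number of arrays and adjusted by Benjamini-Hochberg over all 27596 probe sets. The sample titles name the rat, but no label ties the single arrays of the table to those titles. The tests therefore take the arrays as independent. The number of arrays limits the precision of each mean. Over all probe sets the median change from 0 h lay between 0.04 at 24 h and 0.07 at 3 h, and the median of the authors' SDs lay between 0.14 and 0.16.

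Over the time course Nr4a1 fell and Fos, Jun, Junb, Jund and Egr1 rose. Nr4a2 changed less, and Fosb, Nr4a3 and Egr2 did not pass the F-test. The F-test over the 6 time points called 7 of the 10 genes at an adjusted p under 0.05, where it called 55.5% of all probe sets. For Nr4a1, Fos and Jund the paper lists larger F-test p-values than the unadjusted ones here, 2.93e-15, 2.35e-05 and 0.0012. The cause of that difference was not tested. Against 0 h, 2 of the 10 were higher at 1 h (21.7% of all probe sets) and 1 was lower (15.4%). At 2 h 4 were higher (21.7%) and 1 was lower (18.6%), and at 3 h 5 were higher (27.3%) and 2 were lower (19.2%). At 6 h 5 were higher (22.5%) and 1 was lower (19.3%). At 24 h 0 were higher (17.4%), with 0 also at an unadjusted p under 0.05 and 0 by the ordinary test, and 1 was lower (13.9%). The shares of the 10 genes at 1 h lie near those of the whole table. The shares lower at 2, 3, 6 and 24 h lie near or below those of the table. With 10 genes all of these shares are coarse.

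**Figure D1:**
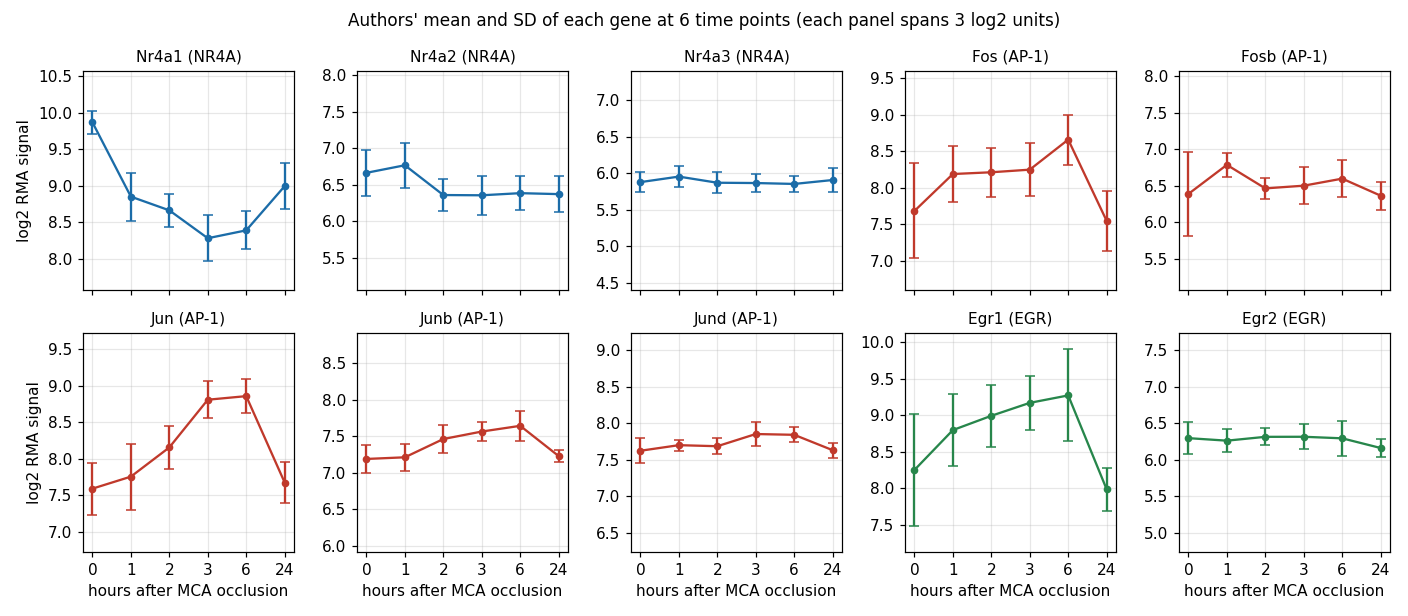
Authors' mean (points) and SD (bars) of the log2 RMA signal of each gene (vertical axis) at 0, 1, 2, 3, 6 and 24 h post MCA occlusion (horizontal axis, evenly spaced), with 8 arrays per time point and 7 at 6 h, every panel spanning 3 log2 units. Nr4a1 drops from 9.87 to 8.28 by 3 h, Fos, Jun and Egr1 climb to their highest mean at 6 h and are back near 0 h at 24 h, and Nr4a3 and Egr2 stay within their bars.

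Nr4a1, also called Nur77, is induced by antigen receptor signals in lymphocytes and is needed for the survival of patrolling monocytes. Its probe set, 10899387, is annotated at rn5 chr7:140713176-140721073, plus strand. The mean was 9.87 at 0 h (SD 0.16), 8.85 at 1 h (SD 0.33), 8.66 at 2 h (SD 0.23), 8.28 at 3 h (SD 0.32), 8.39 at 6 h (SD 0.26) and 8.996 at 24 h (SD 0.31). The 0 h mean stood above all later means, and the gap to the next highest, that of 24 h, was 0.87. The change from 0 h was -1.02 at 1 h (95% interval -1.28 to -0.76, adjusted p = 3.43e-08), already more than 3 times the larger SD of those 2 time points. At 3 h it was -1.59 (95% interval -1.85 to -1.32, adjusted p = 4.25e-14), which is 3.01-fold lower. Of all 27596 probe sets, 45 had a more negative change at 3 h and 45 at 6 h. At 24 h the change was -0.87 (95% interval -1.14 to -0.61, adjusted p = 1.51e-06), 55.0% of the 3 h change. In the order of its levels, 24 h, 1 h and 2 h followed each other by less than their SD, as did 6 h and 3 h. The return from 6 to 24 h, 0.61, passed the test (adjusted p = 6.90e-04), while the step from 2 to 3 h, -0.38, did not (adjusted p = 0.0955).

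The promoter of Nr4a1 is shown because this gene alone of the 10 was called lower at each later time point. The 250 bases before its RefSeq start, GRCr8 chr7:134259888-134260137, plus strand, have in capitals the sites of 2 motifs, TGACG (a half-site of the cyclic AMP response element, here as CGTCA) and GCGNGGGCG (an EGR site).

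Nr4a1: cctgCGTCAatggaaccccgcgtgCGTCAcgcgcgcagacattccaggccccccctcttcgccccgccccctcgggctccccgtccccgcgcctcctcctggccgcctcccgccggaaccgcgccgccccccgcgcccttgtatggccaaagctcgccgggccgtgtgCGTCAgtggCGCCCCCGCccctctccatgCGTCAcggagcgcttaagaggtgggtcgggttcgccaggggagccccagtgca

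It held 4 TGACG half-sites, the nearest from -53 to -49 of the start, and 1 EGR site from -73 to -65, all on the opposite strand. Over the 33469 RefSeq promoters of the same length, 18.2% held TGACG and 4.29% held GCGNGGGCG on either strand. These matches describe letters in a window and show no binding.

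Nr4a2, or Nurr1, changed little. The mean of Nr4a2 (probe set 10845384, minus strand, rn5 chr3:48183771-48191115) was 6.66 at 0 h (SD 0.31) and 6.77 at 1 h (SD 0.31), and then between 6.36 and 6.39 from 2 to 24 h (SDs 0.22 to 0.27). Each neighbour in the order of its levels was within the larger SD of the pair. The step from 1 to 2 h, -0.41 (95% interval -0.67 to -0.15), passed the test with an adjusted p of 0.0361, and 0.0503 with the ordinary test. From 0 h the change of -0.31 at 3 h had an adjusted p of 0.0457, which became 0.0574 with the ordinary test and 0.0595 with the spread of those 2 time points alone. At 2 h, -0.30 had an adjusted p of 0.0539, which fell to between 0.0361 and 0.0495 after centring, after quantile normalization of the means, with the spread of 0 and 2 h alone and without the dimmest 25% of probe sets. The calls of Nr4a2 between pairs of time points thus turned on the setting, with sizes of about 1 SD, while its F-test (adjusted p = 0.0103) was called under each setting that gave one.

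Nr4a3, or Nor-1, was not called at any time. The mean of Nr4a3 (probe set 10868940, plus strand, rn5 chr5:68298772-68339859) lay between 5.86 and 5.96 at all 6 time points, with SDs of 0.11 to 0.16. Its largest change from 0 h was 0.08 at 1 h (95% interval -0.06 to 0.22), and its F-test had an adjusted p of 0.766.

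Fos pairs with Jun proteins in AP-1. Its mean (probe set 10886031, minus strand, rn5 chr6:116249196-116252588) was 7.68 at 0 h (SD 0.65), 8.19 at 1 h (SD 0.38), 8.21 at 2 h (SD 0.33), 8.25 at 3 h (SD 0.37), 8.66 at 6 h (SD 0.34) and 7.54 at 24 h (SD 0.41). It was highest at 6 h and lowest at 24 h, and the means of 1, 2 and 3 h lay within 1 SD of each other. The change at 6 h was 0.98 (95% interval 0.55 to 1.40, adjusted p = 1.82e-04), a 1.97-fold rise. From 6 to 24 h Fos fell by 1.11 (95% interval -1.54 to -0.69, adjusted p = 6.51e-05). At 24 h its change from 0 h was -0.14 (95% interval -0.54 to 0.27). At 1 h Fos had changed by 0.51, less than its SD of 0.65 at 0 h. The adjusted p of that change, 0.0451, became 0.0804 after centring each time point on its median, 0.0599 with the ordinary test and 0.0881 with the spread of 0 and 1 h alone. At 2 h the change was 0.53, with an adjusted p of 0.033, and 0.0626 with the spread of 0 and 2 h alone.

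Fosb, a paralogue that also pairs with Jun proteins, was highest at 1 h. Its mean (probe set 10719432, minus strand, rn5 chr1:81483084-81487576) was 6.39 at 0 h (SD 0.57), 6.79 at 1 h (SD 0.16), 6.47 at 2 h (SD 0.14), 6.50 at 3 h (SD 0.25), 6.60 at 6 h (SD 0.25) and 6.37 at 24 h (SD 0.19). The change of 0.40 at 1 h was called with an adjusted p of 0.0246, but was smaller than the SD at 0 h. That p became 0.0553 after centring, 0.0728 after quantile normalization of the means and 0.0896 with the spread of those 2 time points alone. The F-test did not call Fosb (adjusted p = 0.0839).

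Jun, the AP-1 subunit named for the avian sarcoma oncogene, had the largest rise of the 10 genes. Its mean (probe set 10878112, minus strand, rn5 chr5:117957730-117960823) was 7.59 at 0 h (SD 0.36), 7.76 at 1 h (SD 0.45), 8.16 at 2 h (SD 0.30), 8.81 at 3 h (SD 0.25), 8.86 at 6 h (SD 0.23) and 7.67 at 24 h (SD 0.28). The 3 h and 6 h means stood together above the rest, and those of 0, 24 and 1 h were within their SD of each other. By 1 h Jun had changed by 0.16 (95% interval -0.14 to 0.47, adjusted p = 0.41), and by 2 h it had risen by 0.56 (adjusted p = 0.00263). Its rise reached 1.27 at 6 h (95% interval 0.95 to 1.59, adjusted p = 5.87e-09), which is 2.41-fold. The step from 2 to 3 h, 0.65 (95% interval 0.35 to 0.96, adjusted p = 0.00701), was called. Of all probe sets 60 had a larger rise in that step, and 1.90% were called higher. From 6 to 24 h Jun fell by 1.18 (adjusted p = 8.59e-08), and 6.58% of its 6 h change was left at 24 h.

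Junb and Jund changed less. JunB is known to restrain c-Jun activity and to act in lymphoid and myeloid differentiation, and JunD is the constitutively expressed Jun protein. Junb (probe set 10806585, minus strand, rn5 chr19:37068594-37070378) had means of 7.19 at 0 h (SD 0.20), 7.21 at 1 h (SD 0.19), 7.46 at 2 h (SD 0.19), 7.56 at 3 h (SD 0.13), 7.64 at 6 h (SD 0.20) and 7.23 at 24 h (SD 0.09). The 2, 3 and 6 h means were the high ones, and neighbours among them differed by less than their SD. The change was 0.27 at 2 h (adjusted p = 0.00782) and 0.45 at 6 h (95% interval 0.28 to 0.63, adjusted p = 3.28e-05), a 1.37-fold rise. Jund (probe set 10790948, minus strand, rn5 chr16:20342096-20343931) had means of 7.62 at 0 h (SD 0.17), 7.70 at 1 h (SD 0.07), 7.69 at 2 h (SD 0.11), 7.85 at 3 h (SD 0.16), 7.84 at 6 h (SD 0.10) and 7.63 at 24 h (SD 0.10). Only 3 h and 6 h stood apart from the other time points by more than the SD of their neighbour in order. The change of Jund at 3 h was 0.23 (95% interval 0.10 to 0.36, adjusted p = 0.00309), a 1.17-fold rise. Between 6 and 24 h Junb fell by 0.41 (adjusted p = 2.94e-04) and Jund by 0.21 (adjusted p = 0.0179).

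The promoters of Junb and Jund are shown because these paralogues both rose at 3 and 6 h by small amounts while their upstream sequences differ. In capitals are the sites of TGACG, TGACGTCA (the full cyclic AMP response element, which contains TGACG on both strands) and GCGNGGGCG, over the 250 bases before the RefSeq start, in GRCr8 chr19:40080876-40081125 on the plus strand for Junb and chr16:18769772-18770021 on the minus strand for Jund.
Junb: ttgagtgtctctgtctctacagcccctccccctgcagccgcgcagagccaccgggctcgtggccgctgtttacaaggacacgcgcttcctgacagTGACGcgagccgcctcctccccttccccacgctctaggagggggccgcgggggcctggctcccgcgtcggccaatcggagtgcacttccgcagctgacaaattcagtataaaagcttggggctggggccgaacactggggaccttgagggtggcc
Jund: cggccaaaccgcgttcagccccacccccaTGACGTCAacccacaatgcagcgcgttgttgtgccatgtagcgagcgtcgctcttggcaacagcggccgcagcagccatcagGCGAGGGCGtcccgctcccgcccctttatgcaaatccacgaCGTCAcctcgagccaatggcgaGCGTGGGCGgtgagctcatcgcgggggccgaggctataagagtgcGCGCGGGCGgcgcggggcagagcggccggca
Jund held the full TGACGTCA from -221 to -214, a further half-site and 3 EGR sites, while Junb held 1 half-site. The full site was found in 1.59% of all promoters.

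Egr1 is the EGR factor most used as a marker of recent stimulation, and induces its own corepressor Nab2. Its mean (probe set 10800919, plus strand, rn5 chr18:27369166-27372951) was 8.25 at 0 h (SD 0.76), 8.79 at 1 h (SD 0.50), 8.99 at 2 h (SD 0.42), 9.17 at 3 h (SD 0.37), 9.27 at 6 h (SD 0.63) and 7.98 at 24 h (SD 0.30). The means were higher at each time point up to 6 h than at the one before, but every gap between neighbours in the order of its levels was within the larger SD of the pair. The 1 h change of 0.55 (95% interval 0.06 to 1.04) had an adjusted p of 0.0727. Egr1 had risen by 0.74 at 2 h (adjusted p = 0.013) and by 1.02 at 6 h (95% interval 0.51 to 1.53, adjusted p = 0.00101), which is 2.03-fold. After quantile normalization of the means the change at 1 h was 0.65 with an adjusted p of 0.0405. From 6 to 24 h Egr1 fell by 1.29 (95% interval -1.80 to -0.78, adjusted p = 1.21e-04), the largest fall of the 10 genes in that step, and 98 probe sets of the table fell further. At 24 h its change from 0 h was -0.27 (95% interval -0.76 to 0.23, adjusted p = 0.423).

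Egr2, known from myelination and from T cell anergy, was not called at any time. The mean of Egr2 (probe set 10832802, minus strand, rn5 chr20:24551935-24556227) lay between 6.26 and 6.31 up to 6 h and was 6.16 at 24 h, with SDs of 0.12 to 0.24. The largest change from 0 h was -0.14 at 24 h (95% interval -0.31 to 0.04, adjusted p = 0.233). The promoter of Egr2, in GRCr8 chr20:21054442-21054691 on the minus strand, is shown because this gene, which the F-test did not call, holds both a CArG box and a TGACG half-site in this window. Both are in capitals, the CArG box first.
Egr2: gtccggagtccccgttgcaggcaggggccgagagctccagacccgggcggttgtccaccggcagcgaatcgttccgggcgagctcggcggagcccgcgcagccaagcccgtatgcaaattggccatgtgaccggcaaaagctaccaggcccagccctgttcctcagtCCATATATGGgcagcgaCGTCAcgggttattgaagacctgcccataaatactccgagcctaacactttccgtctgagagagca
The CArG box, searched on both strands, was found in 1.5% of all promoters and in 2 of the 7 members with a promoter in the RefSeq table. It occurred at 2 places in Egr1 and at 1 in Egr2. TGACG was found in 6 of these 7, all but Fosb. The NR4A site AAAGGTCA (1.24% of all promoters) and the AP-1 site TGACTCA (4.05%) were found in 0 of the 7. Fos, Jun and Nr4a3 were not searched. On rn5 9 of the 10 genes span less than the median of 13326 bases of probe sets with a symbol, from 1785 bases in Junb to 7898 in Nr4a1, and Nr4a3 spans 41088.

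**Figure D2:**
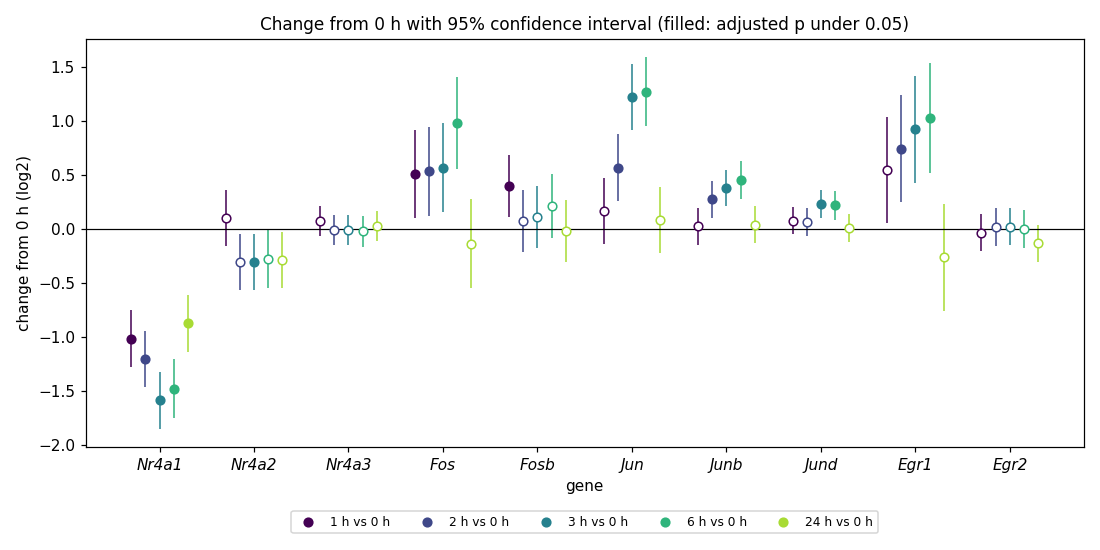
Change of each gene from 0 h on the log2 scale (vertical axis) at 1, 2, 3, 6 and 24 h (colours), with 95% confidence intervals as bars, filled points having an adjusted p under 0.05. All 5 points of Nr4a1 are filled and below 0, Fos, Jun, Junb, Jund and Egr1 have filled points above 0 at 3 and 6 h, and at 24 h the point of Nr4a1, at -0.87, is the only filled one.

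Few genes were called between neighbouring time points before the last step. From 1 to 2 h 1 of the 10 genes was called lower (Nr4a2, where 4.11% of all probe sets were) and 0 higher (4.66%), with 2 higher at an unadjusted p under 0.05 and 0 by the ordinary test. After centring, Junb was called higher in that step, by 0.27 (adjusted p = 0.0327, against 0.0507 without centring). From 2 to 3 h 1 was called higher (Jun, where 1.90% of all probe sets were) and 0 lower (1.62%), with 1 lower at an unadjusted p under 0.05 and 0 by the ordinary test. From 3 to 6 h 0 were called higher (2.34%) and 0 lower (2.44%), with 0 at an unadjusted p under 0.05 and 0 by the ordinary test. In the last step, from 6 to 24 h, Fos, Jun, Junb, Jund and Egr1, 5 of the 10, were called lower (8.68% of all probe sets), and Nr4a1 was called higher (10.2%). All genes that were called at 6 h thus moved back toward their 0 h level in that step. It is also the step in which the site of collection changed and an anesthetic overdose preceded the later sample. At 24 h Jun, Junb and Jund had 6.58%, 8.65% and 3.35% of their largest change left, and the changes of Fos and Egr1 had the opposite sign without passing the test. Whether the genes differed from each other in these steps was not tested, since their values share arrays.

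The spread between arrays was large before occlusion in 3 of the genes. At 0 h the authors' SD was 0.76 for Egr1, 0.65 for Fos and 0.57 for Fosb, against a median of 0.14 over all probe sets. Only 0.0471%, 0.141% and 0.312% of all probe sets had a larger SD at 0 h. The median of the 5 later SDs was 0.42 for Egr1, 0.37 for Fos and 0.19 for Fosb, so that the 0 h samples varied more than those taken later. For Fosb the 0 h SD was 2.99 times that median, and 0.0145% of probe sets had a larger ratio. For all probe sets the median of this ratio was 0.97. Nr4a1 went the other way, with an SD of 0.16 at 0 h and a later median of 0.31, and 96.6% of probe sets had a larger ratio. These are descriptions of the deposited SDs, and the values of single rats behind them were not used. The fit takes 1 spread per gene over all 6 time points, so that the wide 0 h spread enters the interval and p-value of every comparison of these 3 genes, the steps that leave out 0 h included.

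**Figure D3:**
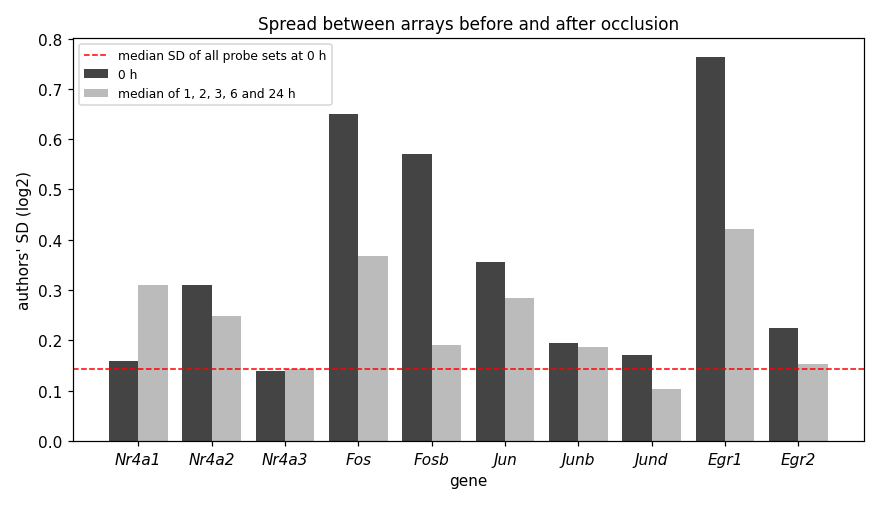
Authors' SD of the log2 signal (vertical axis) of each gene at 0 h (dark bars) and the median of its SDs at 1, 2, 3, 6 and 24 h (light bars), with the median SD of all probe sets at 0 h as a dashed line. The dark bars of Fos, Fosb and Egr1 are the tallest, at 0.65, 0.57 and 0.76, and that of Nr4a1 is lower than its light bar.

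Among other members of the AP-1 and EGR families and their bZIP partners, Jdp2, Batf and Mafg rose most. Of 12 such genes 11 were in the table, and the F-test called 6 (55.5% of all probe sets). Against 0 h 5 were higher at 1 h (21.7%), 6 at 6 h (22.5%) and 5 at 24 h (17.4%). Lower calls numbered 0 at each of these times, where 15.4%, 19.3% and 13.9% of all probe sets were called lower, and the lowest change of any of the 11 was -0.10, at 24 h. The median change was 0.14 at 1 h and 0.19 at 6 h, beside 0.05 over all probe sets at both. Jdp2, a bZIP protein that represses AP-1 targets, rose by 1.10 at 2 h (adjusted p = 4.35e-18) and was at 0.07 at 24 h. Batf, a partner of Jun proteins in lymphocytes, rose by 0.53 at 2 h (adjusted p = 6.24e-08), and Mafg, a small Maf protein, by 0.57 at 3 h (adjusted p = 0.00387). Jdp2 was highest at 2 h, before the highest means of Fos and Jun at 6 h.

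Early genes outside these 3 families changed in both directions. Of 41 such genes 40 were in the table, and the F-test called 37 of them (55.5% of all probe sets). At 1 h 17 were higher and 7 lower (21.7% and 15.4% of all probe sets). At 6 h 22 were higher and 9 lower (22.5% and 19.3%), and at 24 h 7 were higher and 9 lower (17.4% and 13.9%). Their median change went from 0.17 at 1 h to 0.29 at 6 h, and was -0.05 at 24 h. Those with the largest changes were Ier3, an inhibitor of apoptosis, which rose by 1.90 at 6 h (adjusted p = 1.93e-17), and the stress gene Gadd45a, which rose by 1.78 at 3 h (adjusted p = 1.12e-14). Cd69, an activation antigen of lymphocytes, fell by 1.36 at 6 h (adjusted p = 8.77e-09) and, like Nr4a1, was still lower at 24 h, by 0.85 (adjusted p = 1.18e-04).

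**Figure D4:**
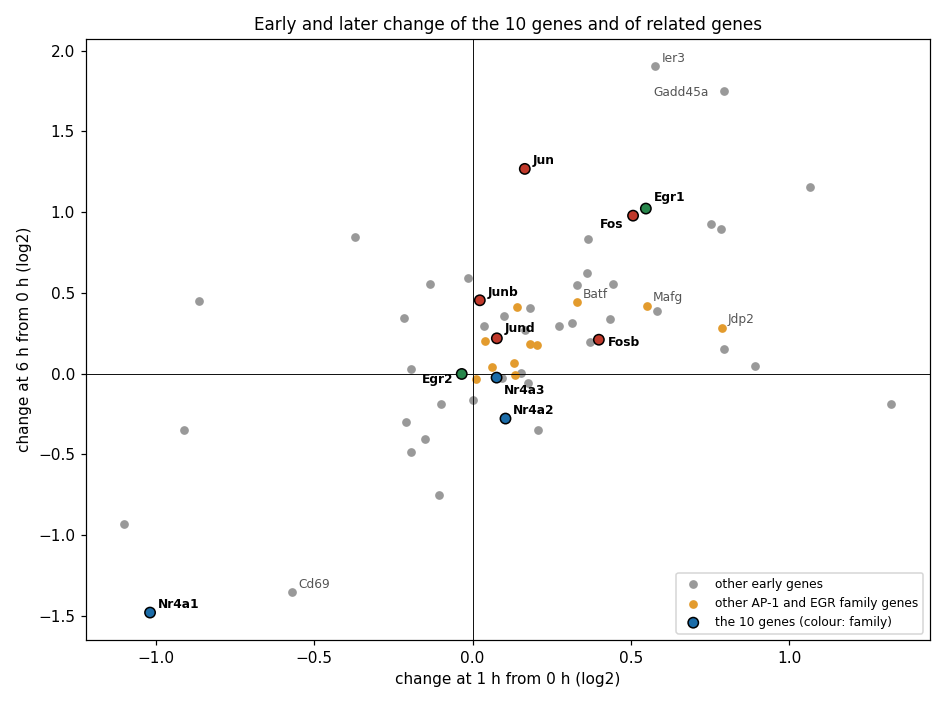
Change from 0 h at 1 h (horizontal axis) and at 6 h (vertical axis), both on the log2 scale, for the 10 genes (large points, coloured by family), 40 other early genes (grey) and 11 other AP-1 and EGR family genes (orange). Nr4a1 lies at the lower left at -1.02 and -1.48 and Cd69 at -0.57 and -1.36, while Jun, at 0.16 and 1.27, changed mainly after 1 h.

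Among the kinases and factors that act upstream of immediate early genes, calls of lower signal outnumbered calls of higher signal. Of 30 such genes 27 were in the table, with 4 higher and 11 lower at 1 h (21.7% and 15.4% of all probe sets) and 5 higher and 12 lower at 6 h (22.5% and 19.3%). After quantile normalization of the means 7 were lower at 1 h. Mef2c, a MADS box factor of B and myeloid cells, fell by 1.21 at 3 h (adjusted p = 1.85e-16), and Nfatc3, a calcium-regulated factor of lymphocytes, fell by 1.01 at 6 h (adjusted p = 1.95e-15). Mapk14, the p38 kinase, rose by 0.86 at 3 h (adjusted p = 2.00e-10). Srf itself had a largest change of -0.12, at 6 h, and was not called at any time. Among 11 dimer partners and corepressors 3 were higher and 3 lower at 1 h (21.7% and 15.4% of all probe sets), and 2 higher and 2 lower at 6 h (22.5% and 19.3%), shares near those of the whole table. The 3 lower ones became 1 after quantile normalization of the means, and the 2 higher ones became 1 after centring. Rxra, the retinoid receptor that Nr4a1 and Nr4a2 can pair with, rose by 1.02 at 2 h (adjusted p = 2.18e-15), when Nr4a1 had fallen by 1.21. Atf7, a partner of Jun proteins, fell by 0.35 at 6 h (adjusted p = 5.65e-04).

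Markers of blood cell types moved during the same hours, and in blood fewer cells of a type and less RNA per cell cannot be told apart. The whole table had 21.7% of its probe sets higher at 1 h, with 22.5% at 6 h and 17.4% at 24 h, while the shares lower at these times were 15.4%, 19.3% and 13.9%. Of 10 B cell markers 9 were lower at 1 h and 9 at 6 h, with a median change of -2.13 at 3 h and -0.53 at 24 h. At 2 h Ms4a1, which encodes CD20, fell by 2.56 and the B cell factor Ebf1 fell by 2.49. All 10 T cell markers were lower at 1, 2, 3 and 6 h and 9 at 24 h, with a median change of -1.08 at 6 h and -0.73 at 24 h. Of 8 NK cell markers 2 were lower and 1 higher at 1 h, and 5 lower and 1 higher at 6 h, with a median change of -0.46 at 6 h. Of 8 monocyte markers 7 were lower and 1 higher at 1 h, and 4 lower and 2 higher at both 3 and 6 h, with a median change of -0.60 at 1 h, -0.18 at 3 h and -0.28 at 6 h. Neutrophil markers went the other way, with 9 of 10 higher at 1 h and 8 at 6 h and a median change of 1.55 at 6 h and 0.74 at 24 h, and Fpr1 and Mmp9 rose most, by 2.80 and 2.75 at 2 h. At 24 h 7 neutrophil markers were higher and 1, Ngp, a granule protein gene chosen after its values were seen, was lower, at -0.90 (adjusted p = 0.00259). Of 7 platelet markers 4 were higher at 1 h, 0 at 6 h and 5 at 24 h. Of 8 erythroid markers 2 were higher at 1 h, 2 lower at 6 h and 3 higher at 24 h, and their median signal stayed between 12.9 and 13.1. Nr4a1 was lowest at 3 and 6 h. At both times 9 of 10 B cell, 10 of 10 T cell and 4 of 8 monocyte markers were lower. Of 8 NK cell markers 6 were lower at 3 h and 5 at 6 h. These counts do not single out 3 and 6 h. At 2 h 10 B cell, 10 T cell, 6 NK cell and 4 monocyte markers were lower, and at 1 h 9, 10, 2 and 7. The neutrophil median had changed by 0.89 at 1 h. Of the genes that were higher at 6 h, Fos and Egr1 had then changed by 0.51 and 0.55. Jun, Junb and Jund had changed by 0.16, 0.02 and 0.08. From 2 to 3 h the neutrophil median went from 1.40 to 1.33. In that step Jun rose by 0.65, Fos by 0.04, Junb by 0.10, Jund by 0.17 and Egr1 by 0.18, and of these only Jun was called. The part of these cell types in the changes of the 10 genes was not tested.

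**Figure D5:**
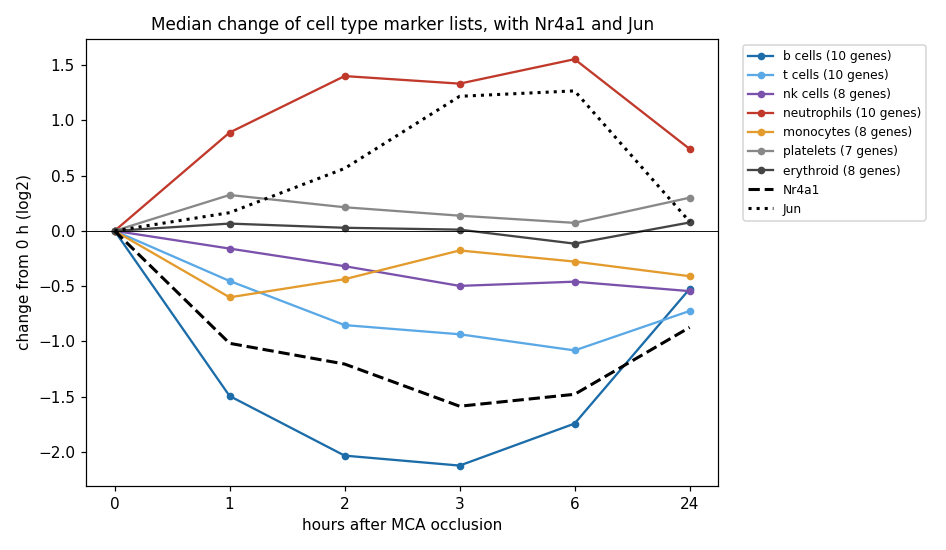
Median change from 0 h on the log2 scale (vertical axis) of 7 lists of cell type markers at 0, 1, 2, 3, 6 and 24 h (horizontal axis, evenly spaced), with the changes of Nr4a1 (dashed) and Jun (dotted). Nr4a1 lies between the B cell and T cell medians from 1 to 6 h and below both at 24 h, and Jun lies below the neutrophil median, at 1.27 against 1.55 at 6 h and 0.08 against 0.74 at 24 h.

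For each of the 7 genes that the F-test called, the 2 other symbols with the most similar 5 changes from 0 h were found by the root mean square difference over those 5 changes. For Nr4a1 these were Hmgn3, a nucleosome-binding protein (0.07), and Heg1 (0.09). For Nr4a2 they were Trim39 and Prss3 (both 0.06). For Fos they were Slc38a2, an amino acid transporter (0.15), and Ltb4r, the leukotriene B4 receptor (0.17). For Jun they were the mannose receptor Mrc1 (0.09) and Eid3 (0.10). Junb was most like Ostf1 (0.01) and Cc2d2a (0.02), and Jund most like Olr268 (0.01) and LOC102552988 (0.03). For Egr1 they were the corepressor Tle3 (0.12) and Vps54 (0.15). Fos and Egr1 thus had no symbol as close as those of Junb and Jund, whose changes are also smaller. A small difference over 5 changes that share the 0 h samples is a likeness of profile only.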

How the data were processed

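RNA of 47 blood cell pellets was hybridised to RaGene 1.0 ST arrays. The authors summarised the arrays by RMA (background correction, quantile normalization, probe summary) and deposited a log2 mean and a log2 SD per probe set and time point, annotated on rn5 per the file headers; limma is named in the submitters' processing notes, and its version is not given in the sources used here. The table also holds the authors' fold changes, p-values, FDRs and F-tests, which were not used. Its 47 columns of single arrays carry numbers that no label ties to a rat and time, and were not used in any step. The gap in these numbers would fall on the uncollected 6 h sample if they ran rat by rat. That order is not stated and was not assumed, so that no fit by rat was made.

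Here limma's model with 1 mean per time point was computed from the deposited means, SDs (taken as sample SDs) and array numbers with squeezeVar (limma 3.58.1, R 4.3.3): 41 residual and 5.71 prior degrees of freedom, Benjamini-Hochberg adjustment over 27596 probe sets, threshold 0.05. Tested on simulated arrays of these 27596 probe sets for 2 h against 0 h, 200 of them changed, it had 5.83% false calls. It recovered 95 of 100 changes of 0.5 and 99 of 100 changes of 1 on the log2 scale. These figures need not hold for genes of wide spread, such as Egr1 and Fos with pooled SDs of 0.52 and 0.43. They need not hold for repeated samples of a rat either. Groups came from the sample titles. Related genes and cell type markers were counted over written lists with 1 probe set per symbol, that of the highest mean. Beside the 10 genes, the text names the 3 genes of largest change among those past the F-test in each related list, 2 B cell and 2 neutrophil markers, and 2 genes of similar profile, with Srf added after its values were seen, and 1 gene that this rule names is not reported here. Members and lists were chosen with earlier results of these data known. Sequences are the 250 bases before the start in RefSeq's GRCr8 promoter table, which matched 7 of the 10 genes. Alternatives were centring, quantile normalization of the means, the ordinary test, a trended robust prior, the spread of 2 time points, leaving out 24 h and leaving out the 25% dimmest probe sets.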

Additional observations from a re-analysis of the deposited data

How the results depend on the processing

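Of 420 recomputed changes and steps of the 10 genes, 391 kept their direction and their side of the threshold. A call was lost in 10 and gained in 7, and 12 changed sign, none of them called under either setting. Steps between neighbouring time points were recomputed only after centring and with the ordinary test. After centring, the changes that turned sign were those of Junb at 1 h (-0.0262) and 24 h (-0.0021), Egr2 at 2 h (-0.0107), 3 h (-0.0194) and from 2 to 3 h (-0.0086), Nr4a3 at 24 h (-0.0126), and Jund at 24 h (-0.0337) and from 1 to 2 h (0.0057). After quantile normalization of the means they were Nr4a3 at 1 h (-0.0037) and 24 h (-0.0424) and Egr2 at 2 h (-0.0352) and 3 h (-0.0528). The count of genes higher at 1 h, 2, became 0 after centring and with the spread of 2 time points. It became 1 with the ordinary test. The count higher at 2 h, 4, became 3 with the spread of 2 time points. The count lower at 2 h, 1, became 2 after centring, after quantile normalization, with the spread of 2 time points and without the dimmest probe sets. The count lower at 3 h, 2, became 1 with the ordinary test and with the spread of 2 time points, and that at 24 h, 1, became 2 after centring. The cause of these shifts was not tested. The calls of Nr4a1 at every time, and of Jun, Junb and Egr1 from 2 to 6 h and Fos and Jund at 3 and 6 h, held under each setting that gave a value. Counts over the related lists were recomputed as alternatives chosen after seeing the data. Of the cell type counts at 1 h, the 2 lower NK cell markers became 0 after quantile normalization of the means, the 1 higher NK cell and the 1 higher monocyte marker became 0 after centring, and the 4 higher platelet markers became 2 after centring, and the 2 lower erythroid markers at 6 h became 0 with the spread of 2 time points. The 10 lower T cell markers at 1 h became 8 after quantile normalization of the means. Smaller shifts of the cell type counts are not listed. No other probe set of the 10 symbols was in the table. No paired analysis was possible because the single arrays are headed by numbers that no label ties to a rat, and they were not assigned to rats by their order or values. The repeated samples of a rat were therefore taken as independent in each p-value.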
